A study of Mus musculus with 40 samples.

Results

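Among the 10 EMT-6 mouse tumors treated with the bifunctional anti-PD-L1/TGFβ Trap, 4 libraries carried more RNA of 6 skeletal muscle genes than the other 6. The libraries were ranked by a muscle score, the mean of log2(CPM + 1) over Ckm, Acta1, Myh4, Atp2a1, Mylpf and Tnnt3, where CPM is the read count scaled for depth by TMM. The 4 highest, C0484, C0479, C0481 and C0480, are called muscle-rich, and C0483, C0485, C0482, C0487, C0486 and C0488 muscle-poor; they are 10 of 40 libraries in all. The members were thus chosen by the measured levels of these 6 genes, so the levels of muscle genes are given below as a description, with no test.

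All 40 tumors were grown by placing EMT6 cells, a mouse mammary carcinoma line, in the right mammary pad of Balb/C females aged 8 to 12 weeks. Treatment started after 20 days of growth, with tumors averaging about 400 mm3. Each of 4 groups of 10 was dosed intravenously on days 0, 1 and 2 and collected on day 6. The bifunctional group received 492 µg of anti-PD-L1/TGFβ Trap, a PD-L1 antibody joined to a trap that binds TGF-β. The anti-PD-L1 group received 400 µg of the antibody alone, the isotype control group 400 µg of an inactive anti-PD-L1 isotype control, and the trap control group 492 µg of anti-PD-L1 (mut)/TGFβ Trap control. No label gives muscle, skin or fat content, or says how a tumor was cut out. The labels name a Balb/C mouse for each tumor without numbering the mice, so p-values measure the spread between these libraries.

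A skeletal muscle fiber contracts by sliding myosin filaments along actin filaments, with troponin and calcium as the switch. Fast fibers use other myosin, troponin and light chain genes than slow fibers, and adult fibers no longer use the embryonic forms. The mammary pad is a layer of fat between the skin and the muscle of the body wall. A tumor that grows there can border on fat, skin, nerve, vessels and muscle.

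The genes that set the score are genes of skeletal muscle fibers, and their start regions are shown because all 5 that could be matched held the same short motif. The windows are the 250 bases before the gene start in RefSeq on GRCm38.p6 (mm10), written 5′ to 3′ on the gene's strand, with CAGCTG in capitals. This is a form of the E-box CANNTG, the motif class read by MyoD family factors. It was searched on both strands, on which it reads the same, and every CAGCTG match is also a CANNTG match.
Ckm (chr7:19410844-19411093, plus strand): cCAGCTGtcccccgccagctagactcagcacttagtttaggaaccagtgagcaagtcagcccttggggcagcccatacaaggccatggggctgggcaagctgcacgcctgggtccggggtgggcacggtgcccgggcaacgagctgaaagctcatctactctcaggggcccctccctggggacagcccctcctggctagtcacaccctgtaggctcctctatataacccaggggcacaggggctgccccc
Acta1 (chr8:123894776-123895025, minus strand): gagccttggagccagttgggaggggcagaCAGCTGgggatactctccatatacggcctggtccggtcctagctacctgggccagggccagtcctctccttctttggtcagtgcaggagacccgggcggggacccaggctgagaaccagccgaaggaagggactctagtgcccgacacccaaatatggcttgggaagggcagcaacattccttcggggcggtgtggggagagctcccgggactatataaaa
Myh4 (chr11:67237562-67237811, plus strand): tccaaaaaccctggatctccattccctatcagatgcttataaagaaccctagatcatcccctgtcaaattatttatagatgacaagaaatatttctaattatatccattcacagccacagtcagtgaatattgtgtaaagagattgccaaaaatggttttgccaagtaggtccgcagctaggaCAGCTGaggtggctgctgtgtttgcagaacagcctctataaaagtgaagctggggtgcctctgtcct
Atp2a1 (chr7:126463074-126463323, minus strand): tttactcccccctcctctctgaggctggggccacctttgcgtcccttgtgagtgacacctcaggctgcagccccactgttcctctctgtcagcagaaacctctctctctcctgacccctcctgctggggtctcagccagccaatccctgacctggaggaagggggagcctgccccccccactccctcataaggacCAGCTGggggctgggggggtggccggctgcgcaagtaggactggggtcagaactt
Mylpf (chr7:127211358-127211607, plus strand): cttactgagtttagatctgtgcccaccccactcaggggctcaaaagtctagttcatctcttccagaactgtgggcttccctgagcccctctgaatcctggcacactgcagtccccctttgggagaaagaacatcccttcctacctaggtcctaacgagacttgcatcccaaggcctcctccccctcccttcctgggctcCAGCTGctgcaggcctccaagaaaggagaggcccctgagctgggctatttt

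No window was matched for Tnnt3. Counted from the gene start, where the base just before it is -1, CAGCTG began at -249 in Ckm, -221 in Acta1, -67 in Myh4, -55 in Atp2a1 and -51 in Mylpf. Over all genes with a window, 3450 of 27025 held CAGCTG, or 12.8%. Among the 69 of 95 genes of the muscle lists with a window, 27 held it, or 39.1%. For the broader CANNTG the shares were 66.0% of all genes and 84.1% of the muscle list genes. A match is a description of the letters, and the expression data do not bear on binding.

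The depth of the muscle-rich and muscle-poor libraries overlapped. Total expected counts ran from 22793641 to 27658217 over the 10 libraries, with a mean of 25451000 ± 1540000 (SD, n = 4) in the muscle-rich and 24786000 ± 1410000 (SD, n = 6) in the muscle-poor (exact permutation test, two-sided, p = 0.505). The share of structural RNA, 7SL and mitochondrial ribosomal RNA, was 13.3% to 18% in all 10. Genes detected averaged 20374 ± 674 (SD, n = 4) against 19584 ± 531 (SD, n = 6), a difference of 790.7 (exact permutation p = 0.0952, and 0.381 after adjustment over 4 such values).

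The muscle score was 8.57 in C0484, 7.53 in C0479, 4.01 in C0481 and 3.51 in C0480. In the muscle-poor libraries it was 1.13 in C0483 and 0.15 to 0.27 in the other 5. The lowest library inside the threshold thus stood at 3.51 and the highest outside at 1.13. The same 4 ranked highest when the score was taken from TPM, and when TMM factors came from the 10 libraries alone. Muscle RNA was not particular to this treatment. C0463 of the trap control had the highest score of all 40 libraries, 9.79, and C0465 and C0468 of that group had 5.07 and 3.15. In the anti-PD-L1 group C0475 had 4.50, and in the isotype control C0449 had 3.57 and C0458 1.17, while all other libraries were below 1.

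**Figure D1:**
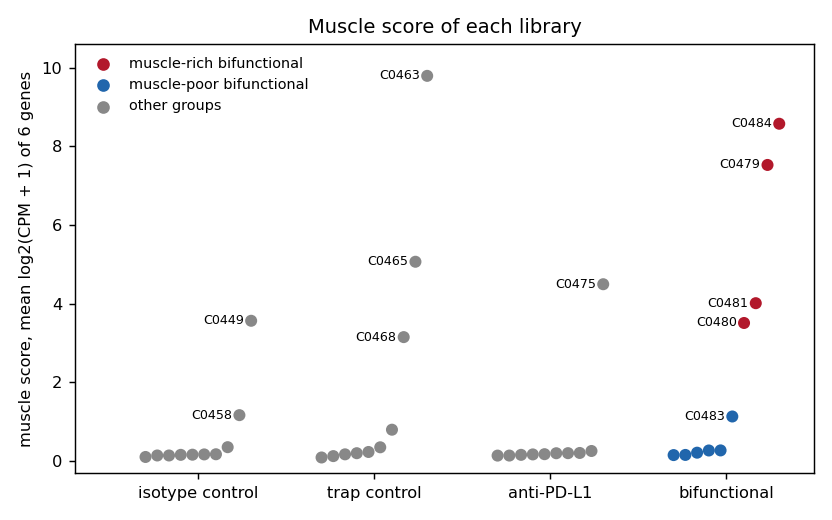
Muscle score (mean log2(CPM + 1) of 6 muscle genes, vertical axis) of each of the 40 libraries, by treatment group; each point is 1 library, and those above 1 are named. The 4 muscle-rich bifunctional libraries sit between 3.51 and 8.57, the 6 muscle-poor ones at or below 1.13, and every other group also holds at least 1 library above 3.

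Within the 4, the score spans 2 levels of muscle RNA. The 6 genes together reached 1049 TPM (transcript level scaled for length and depth) in C0484 and 393 in C0479, against 37.0 in C0481 and 19.2 in C0480. In the muscle-poor libraries the sum was 0.3 to 2.6 TPM. As a share of counts the 6 genes made up 0.406% in C0484 and 0.186% in C0479, but 0.0153% in C0481 and 0.00947% in C0480. The muscle-poor shares were at most 0.00105%, in C0483. Over all genes of the muscle lists C0480 had 0.356% of counts and C0481 0.387%, against 0.295% to 0.36% in the muscle-poor libraries. Acta1, the actin of skeletal muscle thin filaments, was at 386 TPM in C0484, 147 in C0479, 12.2 in C0481 and 7.89 in C0480. Its lowest, median and highest muscle-poor values were 0.05, 0.13 and 0.6 TPM. Ckm, the muscle creatine kinase that buffers ATP, was at 171, 55.0, 5.88 and 3.21 TPM in the same order, with muscle-poor values of 0.01, 0.04 and 0.39. All 6 genes kept this order, C0484 above C0479 above C0481 above C0480, and in none did the muscle-rich and muscle-poor libraries overlap.

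Other genes of muscle fibers followed. Tnnc2, the calcium sensor of fast troponin, was at 137, 62.4, 5.08 and 2.48 TPM and at most 0.2 in the muscle-poor libraries. Tnni2, the inhibitory subunit of fast troponin, was at 111, 53.1, 5.9 and 3.12 TPM, and Myl1, an alkali light chain, at 88.4, 33.4, 3.06 and 1.78. Ttn, the giant spring of the sarcomere, was at 23.2, 6.91, 0.83 and 0.4 TPM, with a muscle-poor maximum of 0.05. The calcium release channel gene Ryr1 was at 7.59, 3.04, 0.27 and 0.12 TPM, and the muscle glycogen phosphorylase gene Pygm at 33.6, 12.5, 1.03 and 0.63. Across these functions the 4 libraries ranked alike. Eno3, an enolase of muscle glycolysis, did not separate them: it was at 52.4, 33.6, 30.3 and 24.1 TPM against 14.2 to 34.4.

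The myosin heavy chains describe the fiber types. Myh4, Myh1 and Myh2 encode the fast IIB, IIX and IIA chains and Myh7 the slow chain. In C0484 the 4 chains summed to 141 TPM, of which Myh4 made up 81.2%, Myh1 10.9%, Myh2 4.57% and Myh7 3.39%. In C0479 they summed to 57.9 TPM, with Myh4 at 72.5%, Myh1 at 22.4%, Myh2 at 5.15% and Myh7 listed at 0. C0481 had 86.6% Myh4 in a sum of 4.70 TPM. In C0480 the order was turned, with Myh1 at 60.4% and Myh4 at 37.4%, but its sum was only 2.65 TPM. C0463, the trap control library with the highest score, had 90.1% Myh4 in 116 TPM. Among the 4, Myh7 was at 4.77 TPM in C0484 and at most 0.01 in the others. C0484 also had Myl2, the slow and cardiac regulatory light chain, at 4.98 TPM. The heart genes did not follow: in C0484 Myh6 was at 0.45 TPM and Nppa was listed at 0.

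Genes of the muscle regeneration list were mixed. The embryonic myosin chain Myh3 and the fusion genes Mymk and Mymx were listed at 0 TPM in all 10 libraries. The satellite cell factor Pax7 was at most 0.02 TPM, Myf5 at most 0.05, Myod1 at most 0.08 and Myog at most 0.15. Other members were higher in C0484 and C0479. Chrna1, a subunit of the muscle acetylcholine receptor, was at 1.03, 0.46, 0.13 and 0.07 TPM in C0484, C0479, C0481 and C0480 and at most 0.16 in the muscle-poor libraries. The perinatal chain Myh8 was at 0.12, 0.23, 0.06 and 0.05 TPM against at most 0.06, and Cdh15, a cadherin of muscle precursors, at 0.24, 0.14, 0.01 and 0.01 against at most 0.01. Ncam1 was at 9.92, 11.5, 20.3 and 13.3 TPM against 12.3 to 21.8, and Megf10 at 0.24, 0.07, 1.37 and 0.74 against 0.35 to 1.95, so in both C0484 and C0479 lay below the muscle-poor range. Trim63, a ubiquitin ligase of muscle atrophy, was at 1.83 TPM in C0484, 0.69 in C0479, and 0.03 in both C0481 and C0480, with a muscle-poor maximum of 0.01. Since 6 of the muscle genes chose the libraries, these levels describe the muscle RNA and do not test the label.

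**Figure D2:**
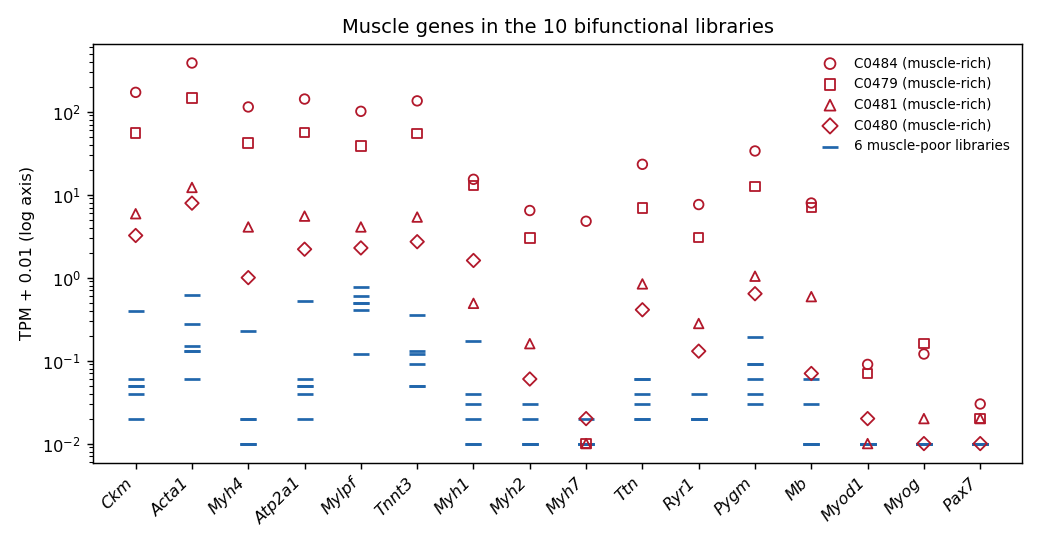
TPM + 0.01 on a log axis for 16 muscle genes in the 10 bifunctional libraries; open red symbols are the 4 muscle-rich libraries and blue dashes the 6 muscle-poor ones. Acta1 runs from 386 TPM in C0484 to 7.89 in C0480 and at most 0.6 in the muscle-poor libraries, and Pax7 lies at or below 0.02 in all.

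With the 4 muscle-rich libraries set against the 6 muscle-poor ones in edgeR, 41 of 15266 genes tested (0.269%) were higher and 0 were lower (0%). Of the 41, 28 were on the muscle lists, and 11 more (among them Nrap, Sypl2, Des, Alpk3, Smyd1, Trim72, Apobec2, Ano5, Klhl31 and Eef1a2) are known muscle genes, picked out as such after the values were seen. These belong to the contrast that chose the libraries, so nothing is read from their tests. The 2 others were Itgal and Ighm. At an unadjusted p under 0.05, 1750 genes were higher and 865 lower, and DESeq2 called 188 higher and 42 lower. The count was 0 without C0479, and also without any of C0482, C0483, C0485, C0487 or C0488. It was 27 without C0484, 72 without C0480 and 74 without C0481.

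Itgal, the αL chain of the leukocyte integrin LFA-1, was at 9.48 CPM in C0484, 12.0 in C0479, 8.42 in C0481 and 10.7 in C0480. Its lowest, median and highest muscle-poor values were 4.37, 5.13 and 6.4 CPM, so the sets did not overlap. The log2 difference was 0.96 ± 0.15 (SE, n = 4 and 6; adjusted p = 0.0239, edgeR). Ighm, the constant region of IgM heavy chain made by B cells, was at 6.73, 5.47, 5.91 and 6.47 CPM against 1.56, 2.48 and 3.29, again without overlap. Its log2 difference was 1.29 ± 0.21 (SE; adjusted p = 0.0300, edgeR). Neither followed the order of the muscle score within the 4. When the muscle list genes were left out of the table, the differences were 0.96 and 1.30 but the adjusted p-values 0.0894 and 0.120. Leaving out 1 library at a time, adjusted p for Itgal ran from 0.0150 to 0.103 and for Ighm from 0.0474 to 0.124.

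Outside the muscle lists, 37 lists of cell types and pathways were read, and among their tested genes Des, an intermediate filament gene of smooth and skeletal muscle, was the only one called higher by edgeR. Outside the muscle lists, the T cell and checkpoint lists were those whose level in all 4 muscle-rich libraries lay above all 6 muscle-poor ones. The checkpoint level was 2.43 to 2.69 against at most 2.35, with 0 of 10 members called by edgeR or DESeq2, 3 higher at an unadjusted p under 0.05 and a median log2 difference of 0.48. Of the T cell list's 17 tested members 0 were called, 11 were higher at an unadjusted p under 0.05, and DESeq2 called 2. The median log2 difference was 0.91, beside -0.01 over all genes. The list level, the mean of log2(CPM + 1) over its genes, was 1.25 in C0479, 1.24 in C0480, 0.98 in C0484 and 0.89 in C0481, and 0.66 to 0.79 in the muscle-poor libraries.

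In 4 of the 17 T cell genes every muscle-rich library lay above every muscle-poor one in CPM; over all genes this held for 1.55% upward and 0.832% downward. Cd4, the helper T cell coreceptor, was at 2.84, 4.93, 2.01 and 3.80 CPM in C0484, C0479, C0481 and C0480, against 0.803, 1.30 and 1.45. Its log2 difference was 1.43 ± 0.26 (SE; adjusted p = 0.0713, edgeR). Cd3g, a chain of the T cell receptor complex, was at 0.717, 1.53, 1.16 and 1.25 CPM against 0.259, 0.495 and 0.665, with a difference of 1.28 ± 0.31 (adjusted p = 0.256). Cd8a and Cd28 were the other two, with differences of 0.93 and 0.91 (both adjusted p = 0.256). In absolute terms these were low genes, at most 4.93 CPM. Macrophages and dendritic cells can also carry Cd4. In bulk tissue, fewer cells of a type and less RNA per cell cannot be told apart.

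Genes of MHC class II, which present peptides to helper T cells, showed a similar pattern with some overlap. Their median log2 difference was 0.99 over 8 tested members, 7 with an unadjusted p under 0.05, 0 called by edgeR and 3 by DESeq2. Cd74, the invariant chain, was at 138, 189, 113 and 221 CPM in C0484, C0479, C0481 and C0480, against 55.5, 79.8 and 115 (adjusted p = 0.226, edgeR). C0481 thus lay within the muscle-poor range. Cytotoxic genes, which kill target cells, overlapped between the sets. The cytotoxic list had a median of -0.17, with 2 of 12 members higher and 3 lower at an unadjusted p under 0.05. Gzmb, a granzyme, was at 2.87, 5.78, 3.28 and 4.36 CPM against 2.75, 4.24 and 7.72, and Prf1, perforin, at 2.34, 5.88, 4.15 and 3.40 against 2.33, 5.51 and 8.87. Every muscle-rich value of these 2 genes lay within the muscle-poor range.

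The other tissues of the tumor bed were uneven among the 4. The resident macrophage list was at 5.14 in C0479 and 5.15 in C0484, against 3.31 in C0481, 3.00 in C0480 and 2.97 to 3.93 in the muscle-poor libraries. The resident fibroblast list was at 5.83 and 5.94, against 4.21 and 4.49, and 3.95 to 4.99. The keratinocyte list was at 7.11 in C0479 alone, 1.32 in C0484, and 0.35 to 1.08 in the other 8. The fat cell list was at 5.68 in C0484 and 4.13 in C0479, but 4.29 in the muscle-poor C0485.

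**Figure D3:**
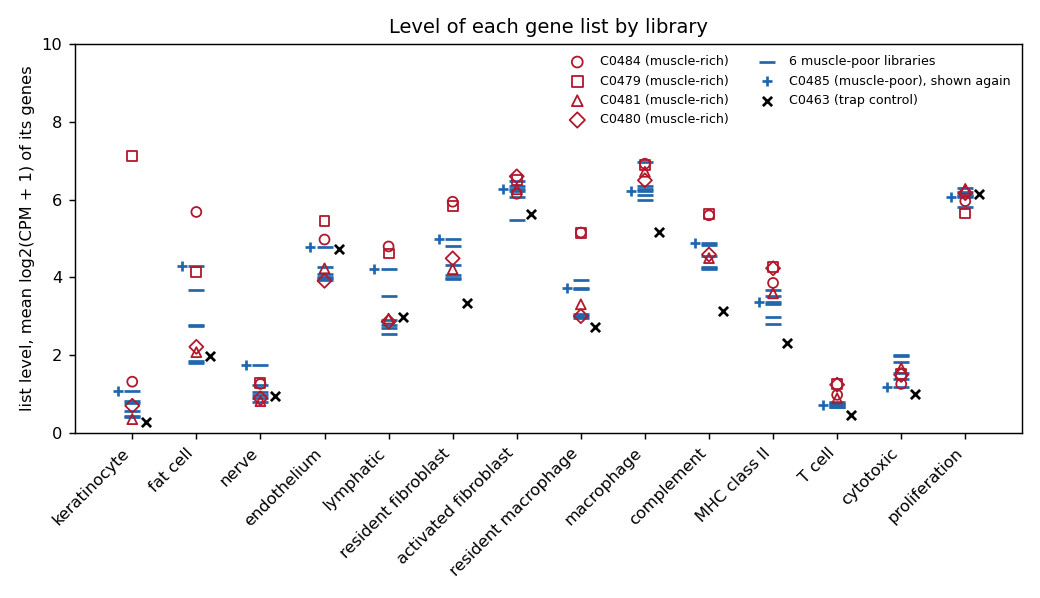
Level of each of 14 gene lists (mean log2(CPM + 1) over the list's genes) by library; open red symbols are the 4 muscle-rich libraries, blue dashes the 6 muscle-poor ones, the plus sign repeats muscle-poor C0485, and the cross is C0463 of the trap control. The resident macrophage level is 5.14 and 5.15 in C0479 and C0484 and at most 3.93 elsewhere among the 10, the keratinocyte level is 7.11 in C0479 alone, and C0463 lies at 2.72 in resident macrophage genes. C0463 belongs to a set of trap control libraries of high structural RNA share, whose others lie at 1.87 to 2.34 in these genes.

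The skin and fat genes show how different the 4 tissue samples were. Krt14, a keratin of the basal skin layer, was at 129 TPM in C0479, 2.79 in C0484, 0.39 in C0481 and 1.02 in C0480, with muscle-poor values of 0.40 to 3.30. Krt10, made above the basal layer, was at 109 TPM in C0479 and at most 0.13 in the other 9. Lor, loricrin of the horny layer, was at 16.8 TPM in C0479 and listed at 0 in the other 9. Krt14 was thus present in all 10 libraries, and Krt10 and Lor were high in C0479.

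Adipoq, the fat cell hormone adiponectin, was at 41.6 TPM in C0484, 5.57 in C0479, 0.50 in C0481 and 0.47 in C0480. Its muscle-poor values ran from 0.32 to 13 with a median of 2.86, the highest in C0485. Cfd, adipsin, was at 357, 35.6, 2.15 and 2.45 TPM against 0.66 to 102. Ucp1, the marker of brown fat, was at most 0.01 TPM. C0481 and C0480 thus had muscle RNA with fat genes near the low end of the muscle-poor range. C0485 was the converse: it had a muscle score of 0.27 with Adipoq at 13 TPM and the lymphatic chemokine Ccl21a at 6.98 TPM.

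With C0480 and C0481 left out, C0479 and C0484 against the 6 muscle-poor libraries gave 2058 of 16039 genes higher (12.8%) and 1037 lower (6.47%). Of the higher ones 1991 were outside the muscle lists. The 3095 calls became 330 without C0479, 1638 without C0484, 1768 without C0487 and 1614 without C0488. With C0479 and C0484 left out instead, C0480 and C0481 gave 20 of 15519 genes higher (0.129%) and 0 lower (0%), with 247 and 160 at an unadjusted p under 0.05. All 20 are genes of muscle: 16 are on the muscle lists, and the others, among them Apobec2, Klhl31 and Ano5, are known muscle genes picked out after the values were seen.

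In C0479 and C0484, 11 of 13 resident macrophage genes were higher, where 12.8% of all genes were. Their median log2 difference was 2.09, beside -0.03 over all genes. The fit with all 4 muscle-rich libraries tested 12 genes of this list. In C0480 and C0481 the median was -0.43, beside -0.02 over all genes. Cd163, the hemoglobin scavenger receptor of resident macrophages, was at 183 CPM in C0484 and 196 in C0479, against 31.9 in C0481, 13.1 in C0480 and 14, 33.6 and 68.3 in the muscle-poor libraries. Its log2 difference for C0479 and C0484 was 2.36 ± 0.45 (SE, n = 2 and 6; adjusted p = 0.0115, edgeR), and 2.3 without C0479 (adjusted p = 0.0824). Cd209f, a lectin of the same cells, was at 17.8 and 25.4 CPM against 2.18, 2.28 and at most 4.02. The general macrophage list moved less, with 3 of 18 members higher, a share near that of all genes, 1 lower and a median of 0.57. On both genes C0479 and C0484 lay above all other bifunctional libraries.

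Of the resident fibroblast genes, 15 of 20 were higher in C0479 and C0484, with a median of 1.76, where 12.8% of all genes were higher. Dcn, the matrix proteoglycan decorin, was at 273 CPM in C0484 and 322 in C0479, against 105 in C0481, 76.9 in C0480 and 33.9, 67.7 and 123 in the muscle-poor libraries (log2 difference 1.97 ± 0.35, adjusted p = 0.0101, edgeR). Pi16, a marker of adventitial fibroblasts, was at 50.2 and 131 CPM against 8.56 to 40.1 in the muscle-poor libraries, with the top value in C0485. The activated fibroblast list did not shift in the same way: 2 of 15 were higher, a share near that of all genes, and the median was -0.16. Fibrillar collagen and its processing enzymes had 10 of 18 higher (median 0.93), with Col1a1, the main chain of fibrillar collagen, at 3490 and 6040 CPM against 1070, 2120 and 2790. The call of Col1a1 (1.18, adjusted p = 0.0417) was lost without C0479 (0.71, adjusted p = 0.340), C0483 (adjusted p = 0.0583), C0487 (adjusted p = 0.0710) or C0488 (adjusted p = 0.0756), all with edgeR. Basement membrane genes had 7 of 13 higher (median 0.93), with Lama2, the laminin chain of the muscle basement membrane, at 56.1 and 59.9 CPM against at most 28.5.

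Vessel and complement genes were higher in the same 2 libraries. Of 18 endothelial genes 15 were higher, with a median of 1.09. Pecam1, an adhesion molecule between endothelial cells, was at 97.1 CPM in C0484 and 146 in C0479, against 55.7, 47.8 and a muscle-poor range of 47.1 to 82.0. Of 14 complement genes 8 were higher, with a median of 1.21. C3, the central complement factor, was at 578 and 359 CPM against 78.9, 138 and 69.4 to 266. Of 8 MHC class II genes 5 were higher (median 1.06). Of 17 T cell genes 2 were higher, Cd4 and Bcl11b, a share near the 12.8% of all genes. Cd4 had a difference of 1.58 (adjusted p = 0.01, edgeR), and of 1.11 without C0479 (adjusted p = 0.135). Bcl11b is also made in skin, and it was at 21.4 CPM in C0479, 3.30 in C0484 and at most 2.23 in the muscle-poor libraries. Keratinocyte genes had 7 of 8 higher, beside 12.8% of all genes, which rests on C0479. The log2 difference of Krt14 was 5.64 with both libraries and 0.66 without C0479. The fit with all 4 muscle-rich libraries tested 6 genes of this list. With a set of 2 the filter asked for expression in fewer libraries. Genes can thus have entered through the libraries where they were high, and nothing is read from the 7 of 8.

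Lower genes made up 6.47% of all genes in C0479 and C0484. Of 13 MHC class I genes 3 were lower, among them Tapbp, which loads peptides, at 234 CPM in both against 302 to 352. Of 21 proliferation genes 2 were lower, Kif20a and Kif11, both motors of cell division, a share near that of all genes. At an unadjusted p under 0.05 with edgeR, 12 of the 21 proliferation and 9 of the 13 MHC class I genes were lower. Over all genes this held for 2739 of 16039. The proliferation and MHC class I medians were both -0.37, beside -0.03 over all genes. The TGF-β pathway list had 2 of 20 called lower and 3 higher. Kif11 was at 77.2 and 64.5 CPM against 80.5, 98.4 and 123. Gzme, a granzyme, was lower too, at 0.935 and 0.826 CPM against 1.78, 3.28 and 5.62 (adjusted p = 0.0296, edgeR), but it was also at 1.09 CPM in C0480. Its call was lost without C0479 (adjusted p = 0.171), C0484 (adjusted p = 0.113) or C0487 (adjusted p = 0.0563).

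**Figure D4:**
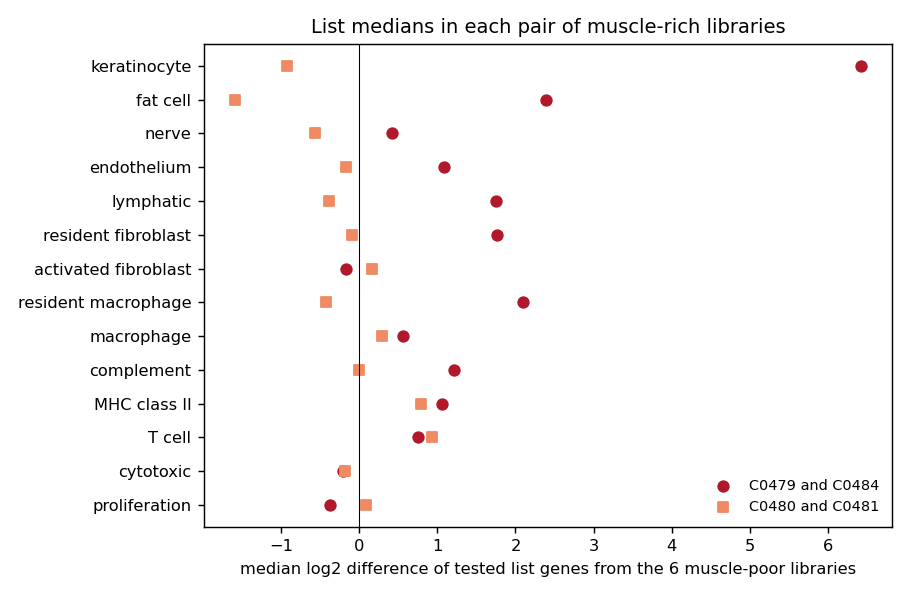
Median log2 difference of the tested genes of each list from the 6 muscle-poor libraries, for C0479 and C0484 (circles) and for C0480 and C0481 (squares). The resident macrophage median is 2.09 in the first and -0.43 in the second, whereas the T cell median is 0.76 and 0.94 and that of MHC class II 1.06 and 0.80.

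The T cell and MHC class II medians were above 0 in both parts of the muscle-rich set, 0.76 and 1.06 in C0479 and C0484 and 0.94 and 0.80 in C0480 and C0481. This was not particular to these lists. In the same order of pairs, medians were 0.944 and 0.506 for dendritic cell, 0.567 and 0.295 for macrophage and 0.47 and 0.346 for checkpoint genes. Others above 0 in both pairs included lymphoid chemokine (1.81 and 0.435) and B and plasma cell genes (0.992 and 0.775). Stromal lists were mixed: medians were 1.272 and 0.308 for tendon and fascia and 0.7 and 0.174 for elastic fiber genes. For resident fibroblast genes they were 1.759 and -0.095. Immune lists were not all alike, and the cytotoxic medians were -0.201 and -0.185. None of the 17 T cell genes or the 8 MHC class II genes was called for C0480 and C0481 by edgeR, where 7 and 5 had an unadjusted p under 0.05. Both comparisons share the 6 muscle-poor libraries.

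The 30 libraries of the other groups were not used to choose the 4, and the slope of each gene on the muscle score was fitted there with treatment as a term. Structural RNA made up 34.2% to 62% of the isotype control libraries and 29.7% to 62.3% of 6 trap control libraries, among them C0463, against 12.9% to 17.4% of the other 4 trap control libraries. The fit therefore held the trap control as 2 sets by this share. In edgeR 171 of 15656 genes (1.09%) rose with the score and 16 (0.102%) fell. The score is built from muscle genes, so the slopes of muscle genes are not read. The 2 genes outside muscle among the 41 of the split were not called here: Itgal had a slope of 0.02 ± 0.04 (adjusted p = 0.937) and Ighm one of -0.01 ± 0.09 (adjusted p = 0.985).

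Outside the muscle lists 122 genes had a rising slope, and 108 of them were among the 1991 higher in C0479 and C0484. That is 88.5% of the 122 and 5.4% of the 1991, where the shorter list sets the most that could be shared. Among the lists, 1 of 20 resident fibroblast genes rose, Gpx3, an extracellular glutathione peroxidase (slope 0.28 ± 0.05, adjusted p = 0.00141). Cxcl12, a chemokine of stromal cells, rose with a slope of 0.37 ± 0.08 (adjusted p = 0.0102), but this call was lost without C0463 (adjusted p = 0.475) or without C0449 (adjusted p = 0.0904). H19, an imprinted RNA of fetal tissue that adult muscle keeps, rose by 0.54 ± 0.07 (adjusted p = 4.93e-06). Without C0463 the slopes of Gpx3 and H19 were 0.28 and 0.50, with adjusted p-values of 0.473 and 0.113. In the bifunctional libraries H19 was at 110, 116, 12.1 and 58.5 CPM against 3.60, 7.85 and 35.4.

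None of the resident macrophage (12 tested), endothelial (18), T cell (12), MHC class II (7), keratinocyte (6) or fat cell (15) genes passed in either direction with edgeR. At an unadjusted p under 0.05, 1 resident macrophage and 2 endothelial genes rose, and 7 of 15 fat cell genes and 1 keratinocyte gene fell. Over all 15656 genes, 744 rose and 780 fell at that p. The fat cell median slope was -0.068. The median slope was 0.08 for resident macrophage and 0.05 for T cell genes, beside -0.001 over all genes. C0463 weighs most in this fit, and without it 60 genes were called in place of 187. That library, with the highest score, had Cd163 at 22 CPM, Dcn at 12.5, Adipoq at 0.273 and Krt14 at 0.818. Within its own set of 6 trap control libraries of high structural RNA share it was the highest in resident macrophage level, 2.72 against 1.87 to 2.34, and in resident fibroblast level, 3.33 against 2.81 to 3.27. Of all 30, C0478 of anti-PD-L1 was the highest in resident macrophage (4.385) and resident fibroblast level (5.008), at a muscle score of 0.20. C0467 of the trap control was the highest in fat cell level (4.454), also at a score of 0.20. Apoc1, an apolipoprotein gene, fell with the score in the 30 libraries (slope -0.66 ± 0.16, adjusted p = 0.0229) but was at 10.4 and 10.3 CPM in C0484 and C0479 against at most 3.01.

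Whether the slopes differ between the bifunctional and the other libraries was tested as an interaction over all 40. In edgeR 93 of 16174 genes (0.575%) had a higher slope in the bifunctional libraries and 10 (0.0618%) a lower one. Keratinocyte genes led, with Krt14 at 0.80 ± 0.18 log2 units per unit of score (adjusted p = 0.0319), and so did the epithelial junction genes Pkp1 (1.30, adjusted p = 0.0193) and Cdh1 (0.43, adjusted p = 0.0200). These are the genes that were high in C0479 alone. Apoc1 also differed, by 1.05 ± 0.23 (adjusted p = 0.0246). With edgeR 0 of 13 resident macrophage and 0 of 17 T cell genes were called, and 4 and 2 had a higher slope at an unadjusted p under 0.05. Over all genes this held for 1842 of 16174. Cd163 gave 0.06 ± 0.13 (adjusted p = 0.854) and Cd4 0.21 ± 0.10 (adjusted p = 0.277), so a difference between the groups in these genes was not shown.

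The split also bears on the contrast of the bifunctional with the anti-PD-L1 group, whose arms differ by the fused TGF-β trap. In 1 edgeR fit of the 20 libraries, the 6 muscle-poor libraries differed from the 10 anti-PD-L1 libraries in 13 of 15582 genes higher (0.0834%) and 5 lower (0.0321%). In the same fit the 4 muscle-rich libraries differed in 3247 higher (20.8%) and 2524 lower (16.2%). The muscle-rich count of 5771 became 1833 without C0479, 2608 without C0484 and 78 without both. The muscle-poor counts became 48 and 64 without C0482, 11 and 0 without C0485, and 5 and 0 without C0486, C0487 or C0488. They were 71 and 207 without C0479 and C0484, which enter the same fit. A fit without C0475 and also without the 4 muscle-rich libraries gave 23 and 8. DESeq2 called 156 higher and 317 lower in the muscle-poor libraries. Both contrasts share the anti-PD-L1 libraries.

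The 13 genes higher in the muscle-poor libraries were Il2rb, Gzmb, Klrg1, Avil, Prf1, Tcp11l2, Pdgfrl, Zap70, Sytl3, Gzme, Icos, Podn and Nkg7. Gzmb was at 2.75, 4.24 and 7.72 CPM (lowest, median and highest) in the muscle-poor and 0.436, 1.09 and 2.14 in the anti-PD-L1 libraries, without overlap (log2 difference 2.07 ± 0.28, adjusted p = 0.00358, edgeR). Il2rb, the β chain of the interleukin 2 receptor, was at 4.52, 5.06 and 7.35 CPM against 1.58, 2.04 and 3.22 (1.31 ± 0.15, adjusted p = 0.000520). Klrg1, a receptor of effector T and NK cells, differed by 2.16 ± 0.31 (adjusted p = 0.00493). Prf1 (2.22), Gzme (2.42), Nkg7 (1.64), Icos (1.51) and Zap70 (1.19) had adjusted p-values of 0.0340 to 0.0424. The lower genes were Pole2, a subunit of a replicative DNA polymerase, the histone genes Hist1h2ad, Hist1h2an and Hist1h2ai, whose near-identical copies make their counts uncertain, and Eloc. The cytotoxic list had 4 of 12 members higher, with a median of 1.56, beside 0.02 over all genes. With each of the 6 muscle-poor libraries left out in turn, the edgeR calls of Gzmb, Il2rb, Klrg1 and Avil held in 6 of 6 fits. Prf1 held in 5 and was lost without C0487 (adjusted p = 0.0729). Sytl3 and Tcp11l2 held in 3, Gzme, Nkg7, Zap70, Pdgfrl and Podn in 2, and Icos in 1.

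Of the lymphocyte genes among these 13, Gzmb, Il2rb, Klrg1, Prf1, Nkg7, Icos and Zap70 were also called higher in the muscle-rich libraries, and Gzme was not (1.05 ± 0.52, adjusted p = 0.117, edgeR). Gzmb differed from anti-PD-L1 by 1.90 ± 0.31 (adjusted p = 0.000729) and Il2rb by 1.55 ± 0.17 (adjusted p = 0.000178), and between muscle-rich and muscle-poor libraries Gzmb differed by -0.17 ± 0.36 (adjusted p = 0.809) in that fit. Of 17 T cell genes 1 was higher in the muscle-poor libraries (median 0.87) and 16 in the muscle-rich (median 1.66), where 0.0834% and 20.8% of all genes were. The direct difference of muscle-rich and muscle-poor libraries in that fit called 0 of the 17 by edgeR, with 11 higher at an unadjusted p under 0.05. Over all genes this held for 2241 of 15582. Cd4 was at 0.214, 0.651 and 1.17 CPM in the anti-PD-L1 libraries. It differed from them by 0.87 ± 0.30 in the muscle-poor (adjusted p = 0.139) and by 2.3 ± 0.32 in the muscle-rich libraries (adjusted p = 0.000310). The direct difference between both bifunctional sets in this fit was 1.43 ± 0.36 (adjusted p = 0.0507), so it did not pass.

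Stromal and host tissue lists are read against the same shares over all genes. Resident fibroblast genes had 0 of 20 higher in the muscle-poor libraries (median 0.23) and 12 of 20 in the muscle-rich (median 1.29). Resident macrophage genes had 0 of 13 (median 0.08) and 7 of 13 (median 1.37), and fat cell genes 0 of 16 (median 0.97) and 15 of 16 (median 2.28). At an unadjusted p under 0.05 the muscle-poor counts of higher genes were 4, 0 and 1. Over all genes at that p, 1179 of 15582 were higher and 1709 lower. The direct difference of muscle-rich and muscle-poor libraries in this fit called 1 of 20, 0 of 13 and 0 of 16, with 11, 7 and 6 higher at an unadjusted p under 0.05. For that difference 2241 of all 15582 genes were higher at this p. With C0479 and C0484 left out of the muscle-rich set, Cd163 turned from 1.55 to -0.67, Adipoq from 2.39 to -1.87 and Krt14 from 4.86 to -0.63 (adjusted p = 0.732, 0.579 and 0.786, edgeR). Proliferation genes had 0 of 21 lower in the muscle-poor (median -0.33, 16 at an unadjusted p under 0.05) and 15 of 21 lower in the muscle-rich libraries (median -0.42).

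**Figure D5:**
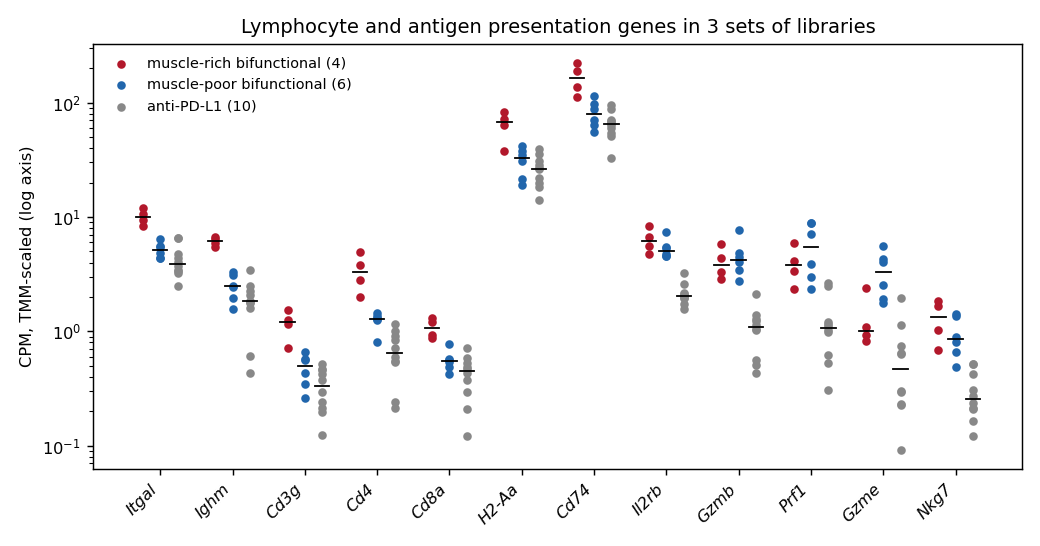
TMM-scaled CPM on a log axis of 12 lymphocyte and antigen presentation genes in the 4 muscle-rich (red), 6 muscle-poor (blue) and 10 anti-PD-L1 libraries (gray); each point is 1 library and each black line a median. Gzmb lies between 2.75 and 7.72 CPM in both bifunctional sets and at most 2.14 in the anti-PD-L1 libraries, while Cd4 is at 2.01 CPM or above in the muscle-rich and at most 1.45 in the muscle-poor libraries.

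Levels of the drug targets themselves overlapped between the sets. Cd274, which encodes PD-L1, was at 7.14, 29.6, 16 and 11.8 CPM in C0484, C0479, C0481 and C0480 against 6.92 to 17.9 in the muscle-poor libraries (log2 difference 0.49 ± 0.38, adjusted p = 0.486, edgeR). Tgfb1 was at 19.6, 25, 18.6 and 13.5 CPM against 11.8, 15.1 and 24.4 (0.24 ± 0.22, adjusted p = 0.546). Tgfb2 and Tgfb3 had differences of -0.19 ± 0.37 and -0.22 ± 0.34, and the receptors Tgfbr1 and Tgfbr2 0.44 ± 0.17 (adjusted p = 0.264) and 0.26 ± 0.11 (adjusted p = 0.279). Over the TGF-β pathway list 0 of 20 genes were called by edgeR or by DESeq2, 4 were higher and 2 lower at an unadjusted p under 0.05, and the median was -0.12. Pdcd1, the receptor PD-1, differed by 0.34 ± 0.33 (adjusted p = 0.571), and Mki67, a marker of cycling cells, by 0.08 ± 0.14 (adjusted p = 0.759).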

How the data were processed

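RNA-seq of 40 tumors was used. The authors deposited a table of expected counts and a table of TPM per gene. The libraries were made from snap-frozen tissue by ribosomal RNA depletion and random priming, per the labels' protocols, and strandedness is not given in the sources used here. RSEM 1.2.31, Bowtie2 2.3.1 and mm10 appear in the submitters' processing notes, without their roles. GENCODE M21 gave symbols for 37607 of 39012 gene IDs (96.4%).

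Expected counts, of which 14.0% were not whole, were rounded. They were scaled by TMM, filtered with filterByExpr and tested with edgeR 4.0.16 (quasi-likelihood, R 4.3.3) over all genes, with Benjamini-Hochberg adjustment and a threshold of 0.05. Single values were compared by exact permutation tests (scipy 1.17.1). DESeq2 1.42.0 and limma 3.58.1 on log2(TPM + 1) and log2(TPM + 0.1) were alternatives, beside other filters, scalings, covariates and left-out libraries. The code was tested on simulated data. Members of the split and gene lists were chosen with earlier results of these data known. Named genes were up to 5 per list by smallest adjusted p, the 10 largest rises and falls at a mean of at least 1 CPM, and a set of drug target and lymphocyte genes. The levels shown for other genes were chosen after values were seen, and some genes are not reported here. The number of reads limits precision, and 1 tumor gives 1 library.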

Additional observations from a re-analysis of the deposited data

Results flagged for a closer look

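The groups checked were the values of 1 measure in the 4 muscle-rich or the 6 muscle-poor libraries, with gene levels as log2(CPM + 1). In each, a library was picked out when its gap to the nearest other was large against the whole range of its group (Dixon's test). This was so in 9 of 104 groups. Chance gives about 1 in 20 for groups not chosen by their own values. The muscle score and its genes chose these sets and are among the groups, so nothing is read from the count. C0483 was the high library of the muscle-poor set in muscle score (1.13) and in CPM of Ckm (1.08), Myh4 (2.88) and Atp2a1 (1.22), and it was the low one in Tgfb2 (5.50 CPM). Cd28 was low in C0484 within the muscle-rich set, at 0.811 CPM. Cd4 was low in the muscle-poor C0482, at 0.803 CPM. In the muscle-poor set Ccl21a was high in C0485 (8.92 CPM) and C1qb high in C0486 (142 CPM). The slope of Krt14 on muscle score was 0.795 log2 units per unit higher in the bifunctional than in the other libraries (edgeR interaction term, adjusted p = 0.0319), and Krt14 was at 448 CPM in C0479 and at most 8.63 in the other 9 bifunctional libraries.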

How the results depend on the processing

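The 41 genes of the split became 0 with the muscle list genes left out, 75 with no filter, 230 with DESeq2, 610 with all 40 libraries in 1 fit, 206 with 20 libraries in 1 fit, 0 and 14 on log2(TPM + 1) and log2(TPM + 0.1), 12 with structural RNA as a covariate and 2614 with the score as a continuous term. They were 20 without C0479 and C0484, 3095 without C0480 and C0481, and 0 to 74 with 1 library left out. The 3095 genes of C0479 and C0484 ranged from 330 to 3363 with 1 library left out. The 187 slope genes became 363 with no filter, 8 in the anti-PD-L1 group alone and 60 without C0463. The 13 genes higher and 5 lower in muscle-poor than in anti-PD-L1 libraries became 6 and 0 with no filter. They became 156 and 317 with DESeq2, 24 and 13 with the score as a covariate, and 71 and 207 without C0479 and C0484. A fit without the 4 muscle-rich libraries and the anti-PD-L1 library above a score of 1 gave 23 and 8. With 1 library left out the higher and lower counts ranged from 5 to 48 and from 0 to 64. The 5771 genes between muscle-rich and anti-PD-L1 became 78 without C0479 and C0484 and ranged from 1833 to 6554. There, without C0479 and C0484, Cd163 turned to -0.67, Krt5 to -0.0634, Krt14 to -0.63, Adipoq to -1.87 and Cidec to -1.61. The cause of these changes was not tested. In the split, values of named genes kept their side of the threshold in 869 cases, gained the threshold in 43 and lost it in 27. A change of sign was counted apart only where the gene was called in either fit. The 869 can therefore include genes not called whose sign changed. The alternatives on C0479 and C0484 alone, on the 20 libraries and on single libraries of the 30 were chosen after seeing the data. No paired analysis was possible because the labels give no replicate numbers shared between groups.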
